A study of Mus musculus with 10 samples.

Results

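The genes described here encode 10 receptor tyrosine kinases for growth factors: Met and Mst1r, the receptors for hepatocyte growth factor (HGF) and macrophage-stimulating protein (MSP), the 4 fibroblast growth factor (FGF) receptors Fgfr1 to Fgfr4, the insulin-like growth factor receptor Igf1r and the insulin receptor Insr, the GAS6 receptor Axl and the ephrin-A receptor Epha2. They were chosen by name, out of 18193 genes with a probe set that the platform annotation gives to 1 symbol, and 27 probe sets carry 1 of these 10 symbols. RNA came from BMEL cells, a bipotential line derived from the embryonic mouse liver, whose cells can develop toward hepatocytes or bile duct cells. One group of 5 arrays came from cells transfected with an antisense oligonucleotide to miR-30a built of locked nucleic acid, and the other 5 from cells given a scrambled oligonucleotide of the same chemistry. Both groups were kept in growth conditions and transfected with Oligofectamine, so the scrambled cells carry an oligonucleotide and a transfection too. The level of miR-30a itself was not analysed here, and the labels do not say whether replicates were separate cultures, so the p-values cover the spread among these arrays, which may be technical.

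A receptor tyrosine kinase pairs or rearranges when its ligand binds, phosphorylates its own tail and recruits adaptors that switch on the RAS-ERK and PI3K-AKT pathways. In the embryonic liver, HGF from mesenchymal cells acts through Met on hepatoblasts to support their growth and survival, and FGFs from neighbouring mesoderm take part in specifying the liver bud. A microRNA lowers the output of its targets. It pairs with messenger RNAs mainly through its seed, bases 2 to 8, and lowers their stability and translation.

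The oligonucleotide was directed against miR-30a, and the labels do not say which arm of the hairpin. The mature sequences of both arms are shown with those of some relatives in the RefSeq table (GRCm38.p6). These relatives carry the same seed, which stands in capitals, and were not ranked by closeness. Mouse miR-30a is on the plus strand of chromosome 1, with the 5p arm at chr1:23272274-23272295 and the 3p arm at chr1:23272315-23272336.
miR-30a-5p: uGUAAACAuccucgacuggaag
miR-30c-5p: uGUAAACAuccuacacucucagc
miR-30e-5p: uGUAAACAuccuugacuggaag
miR-30a-3p: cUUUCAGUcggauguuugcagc
miR-30e-3p: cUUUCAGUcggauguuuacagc
The 5p arms share 1 seed and the 3p arms another. Counted from the 5′ end, miR-30e-5p differs from miR-30a-5p by C13U, and miR-30e-3p differs from miR-30a-3p by G18A, both outside the seed.

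Levels are given as deposited, on a log2 scale, and the medians of the arrays ran from 5.21 to 5.24. Each gene was read from its brightest probe set over the 10 arrays. A gene was tested only if that probe set averaged at least 4.56, a level that excludes the dimmest 40% of probe sets. That left 12634 genes for limma, with Benjamini-Hochberg adjustment over all of them and a threshold of 0.05. Of the 10 receptors 9, all but Fgfr1, were among them. The cells carried liver epithelial markers: the keratin gene Krt8 averaged 13.8, the hepatocyte nuclear factor gene Hnf4a 10.7 and the cadherin gene Cdh1 11.2. The albumin gene Alb (4.71) was close to the filter level and the hepatoblast marker Dlk1 (4.33) under it. Of 6 endothelial markers 3 were above the filter level, Flt1 (8.22), Kdr (6.09) and Erg (5.37), while Pecam1 (3.47), Tek and Cdh5 were under it. Of 6 blood and macrophage markers 4 were above it, with Csf1r (6.44) and Cd68 (5.66) the highest, while Ptprc (3.56) and Adgre1 were under it. Of 7 mesenchymal markers 5 were above it, the highest being Des (5.66), and Col1a1 and Lum were under it. Of 9 tested liver epithelial markers none was called by limma, and 1 (Sox9) had an unadjusted p under 0.05, against 12.9% of all genes. The summed linear values of that list ran from 42027 to 43298 in antisense arrays and from 42610 to 44201 in scrambled arrays. They mainly follow its brightest members, the keratin genes Krt8, Krt18 and Krt19 (13.8, 13.7 and 13.5), and say little of the dimmer ones. The sums ran from 197 to 223 in antisense and from 200.4 to 210.2 in scrambled arrays for the mesenchymal list, from 399.8 to 460.3 in antisense and from 433 to 479 in scrambled arrays for the endothelial list, and from 208 to 238 in antisense and from 199 to 227 in scrambled arrays for the blood and macrophage list. All sums include the markers under the filter level, and the endothelial sum mainly follows Flt1. Of the 12 tested members of these 3 lists 1 was called, against 1.53% of all genes: Cd68, which rose by 0.39 (limma adjusted p = 0.0176). Their part in the receptor values was not tested. In bulk RNA fewer cells with a transcript and less of it per cell cannot be told apart.

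None of the 9 tested receptors passed the threshold in either direction, while 1.53% of all genes did (193 of 12634). At an unadjusted p under 0.05 there were 2 (Fgfr3 and Epha2), against 12.9% of all genes. A change above 0 was seen in 7 of the 9 and a change below 0 in 2, with a median of 0.06 on the log2 scale against 0.01 over all genes. The 95% intervals of the 9 changes, each from the brightest probe set, lay between a fold of 0.827 and a fold of 1.24, antisense over scrambled. Each interval holds for 1 gene at a time and covers only the spread among these arrays. The dimmer Met probe set had a wider one, from -0.18 to 0.33 on the log2 scale. In simulated data the same procedure recovered 60.1% of log2 changes of 0.25 and 95.5% of changes of 0.5 in the antisense against scrambled comparison of 12634 genes. The smallest adjusted p among the receptors was 0.120, for Epha2. With the replicate number as a block none was called either, against 3.05% of all genes, and 4 (Fgfr3, Insr, Axl and Epha2) had an unadjusted p under 0.05, against 17.2% of all genes.

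**Figure D1:**
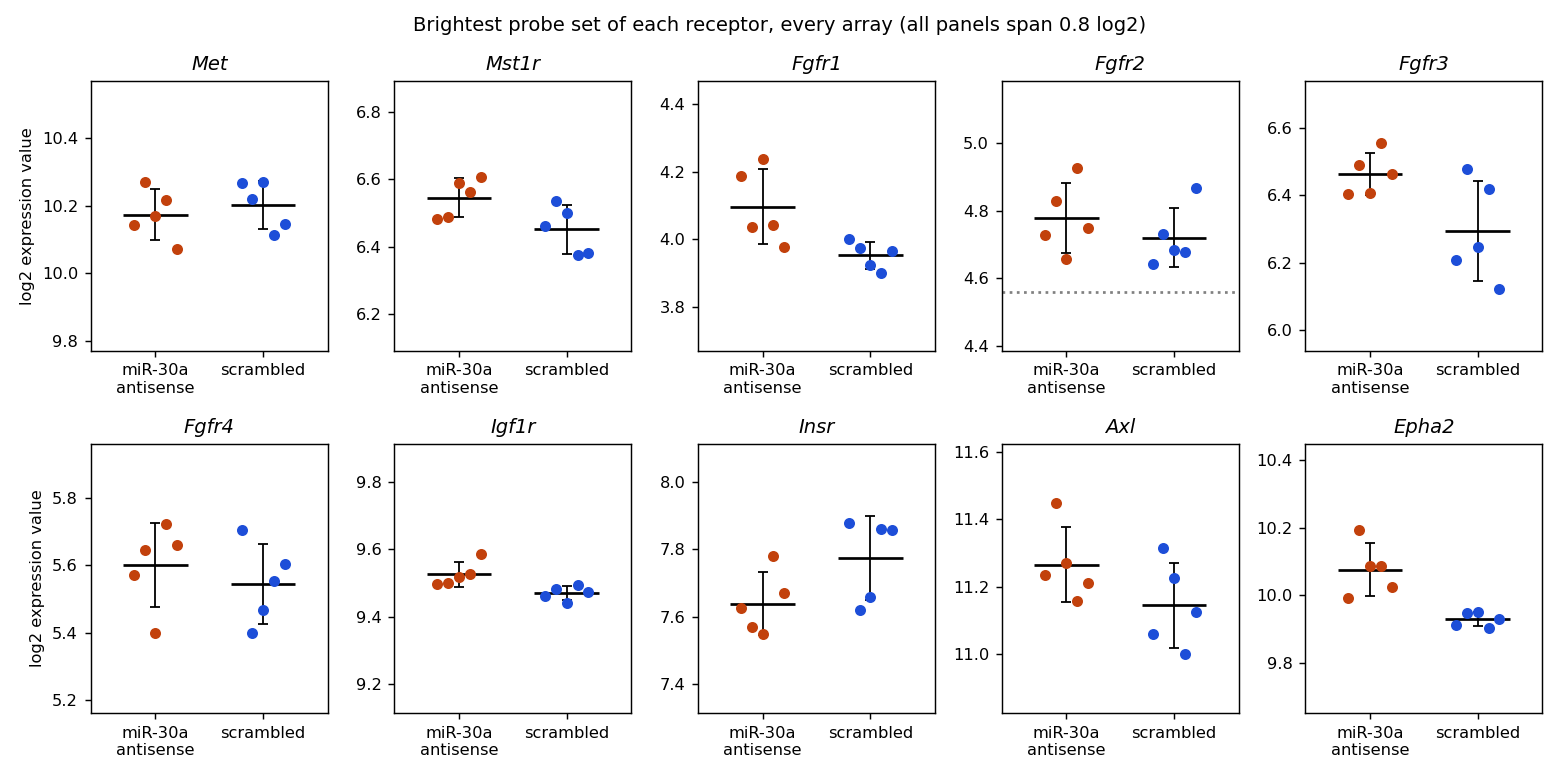
Log2 expression value (vertical axes, each spanning 0.8) of the brightest probe set of the 10 receptors, with 1 point for each of the 5 miR-30a antisense arrays (left, orange) and the 5 scrambled arrays (right, blue). Horizontal lines are means, error bars are SD, and the dotted line in the Fgfr2 panel is the filter level of 4.56. The groups are apart for Epha2 and, by a narrow gap, Igf1r, and overlap for the other 8.

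Met, whose product is the HGF receptor, stood at 10.14, 10.27, 10.17, 10.22 and 10.07 in antisense arrays 1 to 5, against 10.27, 10.22, 10.27, 10.11 and 10.15 in scrambled arrays 1 to 5. The groups overlapped throughout, and all 10 values lay within 0.199. The means were 10.17 ± 0.076 in antisense arrays and 10.20 ± 0.071 in scrambled arrays (SD, n = 5 each), a change of -0.03 (SE 0.048, limma adjusted p = 0.871). A dimmer Met probe set averaged 5.22 ± 0.28 in antisense arrays and 5.14 ± 0.15 in scrambled arrays (SD, n = 5 each), a difference of 0.08 (adjusted p = 0.888 over 22747 probe sets). The sign thus differed between the Met probe sets, neither of them called, and the dimmer one had the wider error (SE 0.118).

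Mst1r, also called Ron, encodes the closest relative of Met and binds MSP. Its only probe set read 6.48, 6.49, 6.59, 6.56 and 6.61 in antisense arrays, against 6.46, 6.54, 6.50, 6.38 and 6.38 in scrambled arrays. Antisense arrays 3, 4 and 5 lay above every scrambled array and antisense arrays 1 and 2 inside their range. The change was 0.09 (SE 0.045, limma adjusted p = 0.409).

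The FGF receptors differed in how far they stood above the filter level. Fgfr1 had 3 probe sets and all lay under the filter level, with means over the 10 arrays of 4.02, 3.53 and 3.11. It was therefore not tested. Its brightest probe set read 4.19, 4.04, 4.24, 4.04 and 3.98 in antisense arrays, against 4.00, 3.97, 3.92, 3.90 and 3.96 in scrambled arrays. Antisense arrays 1 to 4 were above all scrambled arrays and antisense array 5 was not. The difference of the means was 0.14, and in a fit without the filter the adjusted p was 0.3245. The mean over its 3 probe sets differed by 0.06.

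Fgfr2, which in its epithelial splice form binds FGF7 and FGF10, had 1 of 3 probe sets above the filter. Its values ran from 4.66 to 4.93 in antisense arrays and from 4.64 to 4.87 in scrambled arrays, with a change of 0.06 (SE 0.057, limma adjusted p = 0.757). Both group means were close to the filter level of 4.56. The name of this probe set ends in _s_at, the array maker's mark for probes shared by several transcripts. Another Fgfr2 probe set, under the filter at a mean of 4.04, averaged 3.94 in antisense arrays and 4.14 in scrambled arrays and was lower in the antisense array of all 5 numbered pairs. It was not tested.

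Fgfr3 is a receptor of FGF1 and FGF9 among others. Its brightest probe set read 6.41, 6.49, 6.41, 6.56 and 6.46 in antisense arrays, against 6.21, 6.48, 6.25, 6.42 and 6.12 in scrambled arrays. Scrambled arrays 2 and 4 lay within the antisense range and the other 3 below it. The means were 6.46 ± 0.063 in antisense and 6.29 ± 0.15 in scrambled arrays (SD, n = 5 each), a change of 0.17 (SE 0.065, limma adjusted p = 0.276). A second Fgfr3 probe set differed by -0.04 (adjusted p = 0.930), so the sign depends on the probe set. The mean over both gave a change of 0.06 (adjusted p = 0.761).

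Fgfr4, the FGF receptor of hepatocytes that with beta-Klotho takes up the FGF15 signal from the gut, had 5 probe sets, 2 of them above the filter. The brighter one ranged from 5.40 to 5.72 in antisense arrays and from 5.40 to 5.70 in scrambled arrays. Its change was 0.05 (SE 0.068, limma adjusted p = 0.818), and the other one differed by -0.02. The names of both end in _x_at, the mark for probes that may also bind other sequences.

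Igf1r, the receptor through which IGF1 and IGF2 drive growth, was covered by 5 probe sets, all above the filter. The brightest gave 9.497, 9.500, 9.519, 9.526 and 9.587 in antisense arrays, against 9.462, 9.481, 9.440, 9.495 and 9.472 in scrambled arrays, shown to 3 decimals because the groups are parted by only 0.002. All antisense arrays were thus above all scrambled arrays. Such separation held for 2 of the 9 tested receptors, Igf1r and Epha2, and for 3.92% of all genes. The change of Igf1r was 0.06 (SE 0.034, limma adjusted p = 0.556), a fold of 1.04. The other 4 probe sets differed by 0.08, 0.15, 0.03 and 0.08, so all 5 were on the same side, with overlapping groups in those 4 and adjusted p from 0.421 to 0.914 over 22747 probe sets. Probe sets of 1 gene read the same RNA and are not replicates.

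Insr encodes the insulin receptor, which can also form hybrid receptors with IGF1R. It had the most negative change of the 9 tested receptors. Its brightest probe set read 7.62, 7.57, 7.55, 7.78 and 7.67 in antisense arrays, against 7.88, 7.62, 7.66, 7.86 and 7.86 in scrambled arrays. Scrambled arrays 2 and 3 lay within the antisense range, while scrambled arrays 1, 4 and 5 were above all antisense arrays. The change was -0.14 (SE 0.063, limma adjusted p = 0.395), a fold of 0.910 with a 95% interval from 0.827 to 1.001. A second probe set above the filter differed by -0.08 (adjusted p = 0.744) and another, under it, by -0.08. The 3 Insr probe sets and the 5 Igf1r probe sets lay on opposite sides of 0, with none called.

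**Figure D2:**
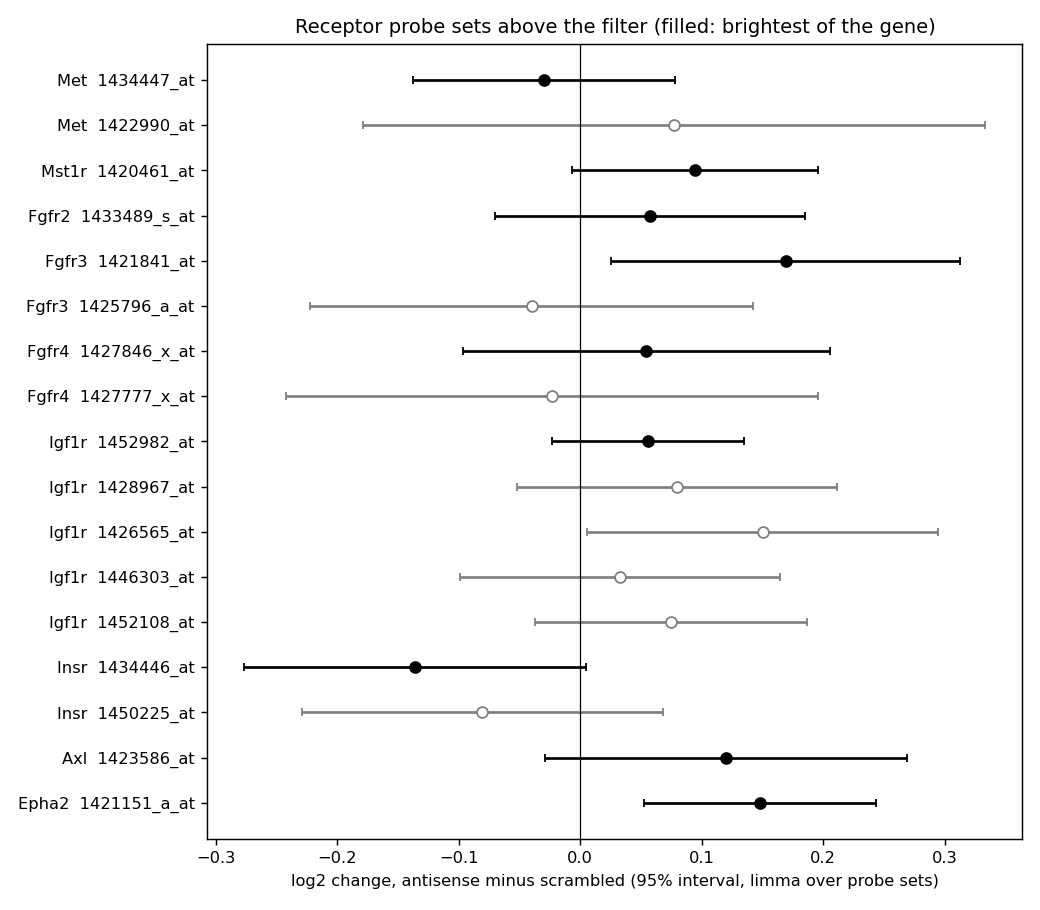
Log2 change, antisense minus scrambled, of the 17 receptor probe sets above the filter, with 95% intervals from limma over 22747 probe sets. Filled points are the brightest probe set of a gene and open points the others. The probe sets of Met, Fgfr3 and Fgfr4 fall on both sides of 0, those of Igf1r all above it and those of Insr all below it, and none of the 17 was called, against 0.686% of all probe sets. An unadjusted p under 0.05 was reached by 3 of the 17 (1 each of Fgfr3, Igf1r and Epha2), against 11.2% of all probe sets.

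Axl, a receptor of the TAM group that GAS6 activates, read 11.24, 11.45, 11.27, 11.16 and 11.21 in antisense arrays, against 11.06, 11.31, 11.22, 11.00 and 11.12 in scrambled arrays. The groups overlapped, and array 2 was the highest of both. The means were 11.26 ± 0.11 in antisense and 11.14 ± 0.13 in scrambled arrays (SD, n = 5 each), with a change of 0.12 (SE 0.067, limma adjusted p = 0.506). With the replicate block the adjusted p was 0.122. A second Axl probe set averaged 2.38 and was not tested, and the mean over both gave 0.07 (adjusted p = 0.448).

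Epha2, an ephrin-A receptor of epithelial cells, came nearest to the threshold. It read 9.99, 10.19, 10.09, 10.09 and 10.02 in antisense arrays, against 9.91, 9.95, 9.95, 9.90 and 9.93 in scrambled arrays. Every antisense array was above every scrambled array. The means were 10.08 ± 0.078 in antisense and 9.93 ± 0.021 in scrambled arrays (SD, n = 5 each), so the antisense arrays spread more widely. The change was 0.15 (SE 0.042, limma adjusted p = 0.120), a fold of 1.11 with a 95% interval from 1.04 to 1.18. The adjusted p was 0.0844 with the replicate block and ran from 0.0832 to 0.244 with 1 array left out. It was lowest with an intensity trend in eBayes (0.0560). With a filter at 60% it was 0.0819, and without the filter 0.186. Epha2 has 1 probe set here, so no second reading of it is available.

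Arrays of both groups carry the numbers 1 to 5, and same-numbered arrays deviated together, though unlike-numbered ones did in part too (a correlation of up to 0.231). Within the 5 numbered pairs, Fgfr3, Igf1r, Axl and Epha2 were higher in the antisense array each time and Insr was lower each time. That makes 5 of the 9 tested receptors with 1 direction in all pairs, against 17.3% of all genes. Epha2 differed by 0.08, 0.25, 0.14, 0.18 and 0.09 in pairs 1 to 5, and Axl by 0.17, 0.13, 0.05, 0.16 and 0.09. Insr differed by -0.25, -0.05, -0.11, -0.08 and -0.19. For Fgfr3 the pairs ranged from 0.01 to 0.34, so pair 2 showed almost no difference. Met, Mst1r, Fgfr2 and Fgfr4 had pairs on both sides of 0.

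**Figure D3:**
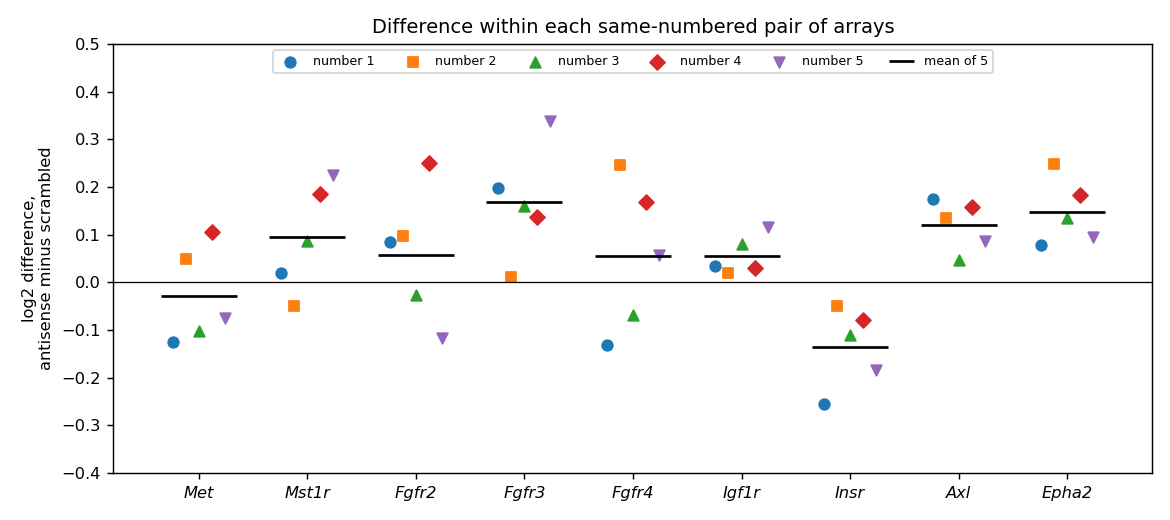
Log2 difference, antisense minus scrambled, within each same-numbered pair of arrays for the 9 tested receptors, with 1 marker shape per number and a line at the mean of 5. All 5 pairs are above 0 for Fgfr3, Igf1r, Axl and Epha2, and all are below 0 for Insr.

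Around the receptors, lists of ligands, adaptors and inhibitors held few calls. For the genes that act on HGF and MSP, 8 of 10 were tested, 1 rose and none fell, against 1.16% of all genes called higher and 0.372% called lower (list median -0.02). The one that rose was Hgfac, a secreted protease that cuts pro-HGF into its active form. It read 9.16, 8.9880, 9.12, 9.03 and 9.14 in antisense arrays, against 8.9879, 8.78, 8.86, 8.75 and 8.84 in scrambled arrays, with 4 decimals for the pair of values that nearly meet. The lowest antisense value was barely above the highest scrambled one, and Hgfac rose by 0.25 (SE 0.052, limma adjusted p = 0.0345). The call was narrow: it was lost without any 1 array other than antisense replicate 2 or scrambled replicate 1, with adjusted p from 0.0668 to 0.0947 in those 8 fits. It also missed the threshold after quantile normalization (0.0572) and without the filter (0.0556). The MSP gene Mst1 had a change of 0.20 (adjusted p = 0.135, or 0.0426 without scrambled replicate 5). The urokinase gene Plau had a change of 0.17 (adjusted p = 0.358, or 0.00950 without antisense replicate 1), from a scrambled mean of 4.49 under the filter level. A dimmer Plau probe set, under the filter and not tested, averaged 3.83 in antisense and 3.46 in scrambled arrays, a difference of 0.37. Hgf itself, named after its value was seen, averaged 4.87 in antisense and 4.85 in scrambled arrays (adjusted p = 0.978).

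Of 30 FGF ligands and co-receptors 14 were tested, 1 rose and none fell (list median -0.01), against 1.16% and 0.372% of all genes. Fgfbp3, which encodes a secreted FGF-binding protein, read 5.63, 5.61, 5.73, 5.60 and 5.49 in antisense arrays, against 5.06, 5.34, 5.37, 5.22 and 5.27 in scrambled arrays. The groups did not overlap. It rose by 0.36 (SE 0.061, limma adjusted p = 0.0125), and remained called with any 1 array left out (adjusted p from 0.0157 to 0.0390). Fgf18 was at 0.32 (adjusted p = 0.219), and with pairs as a block it passed, rising at an adjusted p of 0.0159. The hepatic hormone gene Fgf21 was at -0.22 (adjusted p = 0.466).

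None of the 12 tested insulin and IGF ligands and binding proteins was called, and 3 had an unadjusted p under 0.05, against 12.9% of all genes (list median 0.03). Igfbp3, which encodes the main IGF carrier in blood, averaged 9.31 ± 0.074 in antisense and 8.99 ± 0.18 in scrambled arrays (SD, n = 5 each). Its groups did not overlap. The change was 0.31 (SE 0.076, limma adjusted p = 0.0623). It passed with the replicate block (adjusted p = 0.0296), with an intensity trend (0.0264), with a filter at 60% (0.0445) and without scrambled replicate 2 (0.0452). A second Igfbp3 probe set differed by 0.26 (adjusted p = 0.133 over probe sets). Igfbp4, another IGF-binding protein gene, had a change of 0.15 (SE 0.037, adjusted p = 0.0742), and passed with the intensity trend (0.00855) and the 60% filter (0.0471). The other 5 Igfbp4 probe sets differed by 0.20, 0.15, 0.22, 0.27 and 0.15, all above 0 and none called over 22747 probe sets. Igf2r, which clears IGF2 from the cell surface, had a change of 0.17 (adjusted p = 0.203, or 0.0491 without scrambled replicate 5), and a second probe set of it differed by 0.08. None of the 7 TAM and ephrin ligands tested was called, and 1 had an unadjusted p under 0.05, against 12.9% of all genes (list median -0.00249). The smallest p among them was that of the protein S gene Pros1, an activator of TAM receptors, with a change of -0.16 (adjusted p = 0.164). The ephrin genes Efna3 (-0.06) and Efna2 (0.03) had adjusted p of 0.861 and 0.864, and Gas6, named after its value was seen, was at -0.02.

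Downstream, none of 26 tested adaptors and effectors was called, and 4 had an unadjusted p under 0.05, against 12.9% of all genes (list median 0.01). Irs1 and Irs2 encode the docking proteins of the insulin and IGF1 receptors. Irs1 read 8.31, 8.55, 8.37, 8.25 and 8.32 in antisense arrays, against 8.21, 8.19, 8.17, 8.13 and 8.08 in scrambled arrays. These groups were apart, with a change of 0.21 (SE 0.055, limma adjusted p = 0.0858, or 0.0518 with the replicate block). Irs2 had a change of 0.16 (adjusted p = 0.269), and the FGF receptor adaptor gene Frs3 of -0.11 (adjusted p = 0.264). None of 16 tested genes of receptor turnover and inhibition was called, and 1 had an unadjusted p under 0.05, against 12.9% of all genes (list median 0.03). The RhoGAP gene Arhgap35 had a change of 0.17 (adjusted p = 0.0701). It passed with the intensity trend (0.0391), with the 60% filter (0.0468) and without antisense replicate 1 (0.0306). The endosomal sorting gene Hgs had a change of 0.08 (adjusted p = 0.422) and the receptor phosphatase gene Ptprf of 0.06 (adjusted p = 0.566).

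**Figure D4:**
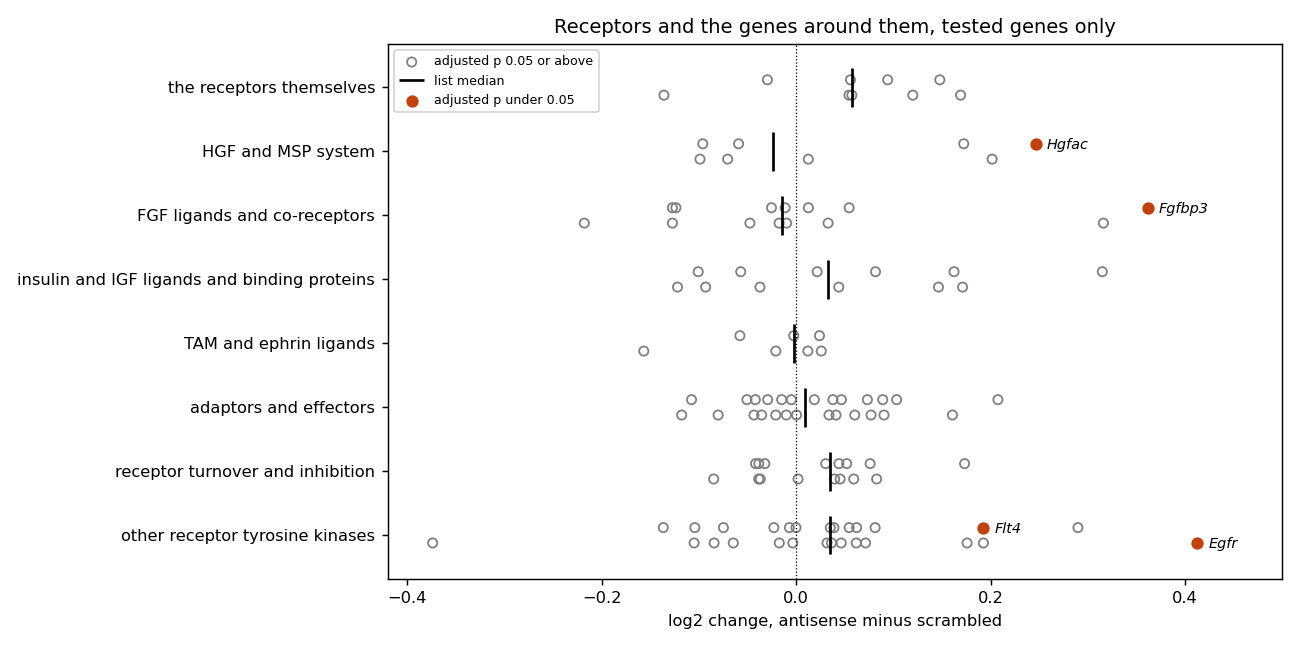
Log2 change, antisense minus scrambled, of each tested gene in the 9 receptors and in 7 lists around them, with open circles for genes not called, filled circles for genes with adjusted p under 0.05 and a vertical line at each list's median. Hgfac, Fgfbp3, Flt4 and Egfr are the filled points, and the receptors' own changes lie between -0.14 and 0.17.

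Among the other receptor tyrosine kinases, 27 of 45 were tested, 2 rose and none fell (list median 0.04). Over all genes 1.16% were called higher and 0.372% lower. Egfr, the epidermal growth factor receptor gene, rose by 0.41 (SE 0.052, limma adjusted p = 0.00199), with means of 8.22 ± 0.079 in antisense and 7.81 ± 0.087 in scrambled arrays (SD, n = 5 each). A second Egfr probe set rose by 0.38 (adjusted p = 0.0271 over probe sets) and 4 more above the filter were not called, at 0.10, -0.06, 0.22 and -0.03. When its probe sets were averaged, the change was 0.15 (adjusted p = 0.0690). Flt4, the receptor gene for VEGF-C, rose by 0.19 (SE 0.041, adjusted p = 0.0363), but the call was lost without any 1 array except antisense replicate 1, with adjusted p from 0.0540 to 0.1005. It was also lost after quantile normalization (0.0529) or median centring (0.0540), without the filter (0.0671) and with the mean of probe sets (0.0544), and a second probe set differed by 0.10. Erbb3, whose product pairs with other EGF receptor family members, averaged 7.57 ± 0.20 in antisense and 7.95 ± 0.15 in scrambled arrays (SD, n = 5 each). Its groups did not overlap, and its change of -0.37 (SE 0.094, adjusted p = 0.0709) passed with the replicate block, where it fell at an adjusted p of 0.00864, and with the intensity trend (0.0345). With the mean of its probe sets the change was -0.19 (adjusted p = 0.235), as a second probe set, under the filter, differed by 0.00175. The changes of the 9 growth factor receptors ran from -0.14 to 0.17 and those of the other 27 from -0.37 to 0.41, and whether the 2 sets differ was not tested.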

How the data were processed

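The deposited table holds log2 expression values for 45101 probe sets on 10 single-colour mouse arrays. Biotin-labelled RNA was made from total RNA with the MessageAmp Premier kit, per the labels' protocols. How the authors summarised, background-corrected and normalized the probes is not stated in the labels, and the log2 scale was read from the values (highest 14.2). Genes were named from the platform annotation, updated by gene identifier: 34945 probe sets had 1 symbol, 932 several and 9160 none. Groups and replicate numbers came from the titles. The test was two-sided, with lmFit and eBayes of limma 3.58.1 (R 4.3.3) and 5 arrays a group, and changes are antisense minus scrambled. Figures were drawn with matplotlib 3.10.9. The number of arrays limits the precision.

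Every receptor is named. Of each list, the called members and the 3 with the smallest p are named. Members and lists were chosen with earlier results of these data known. After each group mean was removed, arrays of the same number correlated at 0.172, 0.377, 0.112, 0.152 and 0.334 over the tested genes, and the 20 unlike-numbered combinations at -0.312 to 0.231. The main fit did not use the numbers, which were treated as pairs only in the replicate block and the pair differences. Each same-numbered value is over 0.1, but so are some unlike-numbered ones, and no label explains the numbers. Both arrays numbered 3 and scrambled array 1 correlated best with another number. The alternatives were the replicate block, quantile normalization, median centring, no filter, a 60% filter, the mean of probe sets, an intensity trend in eBayes and leaving out each array. On simulated data 5.36% of calls were false.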

Additional observations from a re-analysis of the deposited data

Results flagged for a closer look

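In 34 groups of 5 values (17 probe sets above the filter in 2 groups), 4 had 1 array standing far from the rest of its group, by a gap of over 0.71 of the group's range. Chance gives about 1 such group in 20. The dimmer Met probe set read 5.40 in scrambled replicate 3, with the next scrambled array at 5.11. A secondary Igf1r probe set read 8.62 in antisense replicate 2, with the next antisense array at 8.40, and another read 7.53 in antisense replicate 1, with the next at 7.80. The second Insr probe set read 4.65 in antisense replicate 1, with the next at 4.77. None of the 4 is the brightest probe set of its gene, and none of the 4 probe sets was called.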

How the results depend on the processing

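No receptor was called under any of the 17 alternatives run, and 148 of the 149 recomputed changes of tested receptors kept their sign. The exception was Met, at 0.024 when its probe sets were averaged (adjusted p = 0.941). The same setting turned the sign of Efna2 (-0.029) and Efna3 (0.018), and the change of Efna3 ran from -0.129 to 0.0091 with 1 array left out. The count of genes called, 193 with 146 higher and 47 lower, was 385 (253 higher, 132 lower) with the replicate block and 314 (230 higher, 84 lower) with an intensity trend. With 1 array left out it ran from 92 to 201, with 78 to 160 higher and 14 to 41 lower. It was 95, 92 and 123 without antisense replicates 3, 4 and 5, and 101 without scrambled replicate 3. The cause was not tested. Apart from Igfbp3, Fgf18 and Erbb3, the replicate block changed no call of a receptor, of a named list gene or of a tested marker (Cd68 adjusted p = 0.00937, Sox9 0.0571). Fgfr2 and Fgfr4 could not be tested with the 60% filter or the mean of probe sets, which left them under the filter. Low signal limits what can be said of Fgfr1 and Fgfr2.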

Other observations

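The dimmer Met probe set lists the identical value, 5.11, on 3 arrays: antisense replicate 5 and scrambled replicates 2 and 5. Of the 45101 probe sets, 155 repeat a value on 3 or more arrays, and these are mostly dim, with a median level of 3.39. On 2 or more arrays a value is repeated in 3763 probe sets (8.34%), among them 3 of the 27 receptor probe sets, the brightest Met probe set included.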
